A study of Mus musculus with 9 samples.

Results

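The genes described here encode the mTOR complexes, the GTPase Rheb and the complexes that restrain them: Mtor, Rptor, Rictor, Mlst8, Akt1s1, Rheb, Tsc1, Tsc2, Tbc1d7 and Nprl3. They were chosen by name and by role, and the choice was made with earlier results of these data known. Of these 10 genes, 5 (Mtor, Rictor, Mlst8, Rheb and Tsc1) had a row in the table of 7197 genes, and all 5 reached the mean of 10 normalized counts required for testing, as did 6673 genes in all. Rptor, Akt1s1, Tsc2, Tbc1d7 and Nprl3 had no row in the table and were not analysed here. Every gene in the table had a read in at least 7 libraries and at least 8 reads in at least 1, so a gene without a row was given no level.

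The samples were neutrophils sorted from bone marrow as CD45+, CD11b+, Ly6G+ cells, from mice 2 months old. There were 5 Rragc+/+ libraries, from wild-type mice, and 4 RragcS74N/+ libraries, from mice carrying 1 edited copy of Rragc in all cells. The edit, made with CRISPR and accompanied by silent changes, gives the GTPase RagC an active form, and the labels name no further allele or treatment in either genotype. The study text describes more RragcS74N/+ mice than the 4 libraries analysed here, and the labels give neither sex nor batch.

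The kinase mTOR works in a pair of complexes. In mTORC1 it is joined by Raptor (Rptor), mLST8 and PRAS40 (Akt1s1), and in mTORC2 by Rictor and mLST8. Amino acids bring mTORC1 to the lysosome through the Rag GTPases, where GTP-bound Rheb switches the kinase on. Growth factor and energy signals act on Rheb through the TSC complex (Tsc1, Tsc2 and Tbc1d7), and Nprl3 belongs to GATOR1, which turns the Rag GTPases off when amino acids are scarce. In neutrophils, mTOR signaling is known for its part in differentiation, migration and the release of extracellular traps. The question put to the data was whether neutrophils with an active RagC carry different amounts of the mRNAs for the mTOR complexes and these regulators.

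The promoter of Rheb is shown because Rheb is the direct activator of mTORC1 and its promoter holds the E-box CACGTG, the core of the CLEAR element to which the mTORC1-controlled factor TFEB binds. The stretch runs from 250 bases before to 50 bases after the gene start in RefSeq, on the minus strand of chr5:24842312-24842611 in GRCm38.p6, and the capitals mark the E-box, which begins at position -96 from the start.

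Rheb: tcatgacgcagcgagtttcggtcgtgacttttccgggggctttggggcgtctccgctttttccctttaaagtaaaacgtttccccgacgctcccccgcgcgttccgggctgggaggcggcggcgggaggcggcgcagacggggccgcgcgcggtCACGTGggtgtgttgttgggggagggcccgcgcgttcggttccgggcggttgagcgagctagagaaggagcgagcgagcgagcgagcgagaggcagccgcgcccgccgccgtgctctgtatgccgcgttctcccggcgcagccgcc

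The E-box reads the same on both strands. Of the 10 promoters, 2 held it, those of Rheb and Tbc1d7, against 7.15% of the 32851 mouse promoters in the same table and 10.02% of the 7285 promoters of genes with a row. A match of 6 letters is a description of the sequence and not a bound site.

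Libraries were made from the 3′ ends of mRNAs (QuantSeq), so 1 mRNA gives about 1 fragment whatever its length, and levels of different genes are compared here as normalized counts without division by length. Recovered depth was 1214295 to 1973957 reads per library. All 9 neutrophil markers had a row, and their summed level was 118888 to 177541 normalized counts in Rragc+/+ and 115256 to 198526 in RragcS74N/+ libraries. Markers of other cells were detected too. Summed erythroid markers (6 of 8 with a row, led by Hbb-bs) ran from 1084 to 5530.4 in Rragc+/+ and from 370.1 to 2104 in RragcS74N/+, and summed eosinophil and basophil markers (2 of 5, led by Prg2) from 12.2 to 100.3 and from 23.9 to 187. Monocyte markers (2 of 6, led by Csf1r) summed to 135 to 390.3 and 108 to 186, and those of dividing precursors (5 of 8, led by Top2a) to 298 to 591 and 325 to 473. Among B cell and T or NK cell markers, 1 of 6 each had a row, with Ighm at 83.5 to 140.3 and Cd3d at 14.5 to 28.9 over all libraries. No marker passed the test between genotypes, but neither did any other gene, so this does not show equal shares of other cells. Among the leading markers, the largest log2 differences (RragcS74N/+ minus Rragc+/+) were -1.23 for Hbb-bs and 1.38 for Prg2. The part of other cells in the values of the mTOR genes was not tested. In bulk samples, fewer cells of a type and less RNA per cell cannot be told apart.

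None of the 5 genes passed the test between genotypes (limma, adjusted p over all genes at least 0.713), and the ranges of the genotypes overlapped for each. The background share of genes past the adjusted threshold was 0.00% of the 6673 genes tested, so no gene of the table was called. With unadjusted p under 0.05, 0 of the 5 genes and 388 of all genes (5.81%) were counted by limma (2.01% of genes higher and 3.81% lower in RragcS74N/+), and 460 (6.89%) by edgeR and 447 (6.70%) by DESeq2. Genotype ranges did not overlap in 1.69% of all genes. Changes below are log2 differences of the normalized count plus 1, RragcS74N/+ minus Rragc+/+, with their SE.

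**Figure D1:**
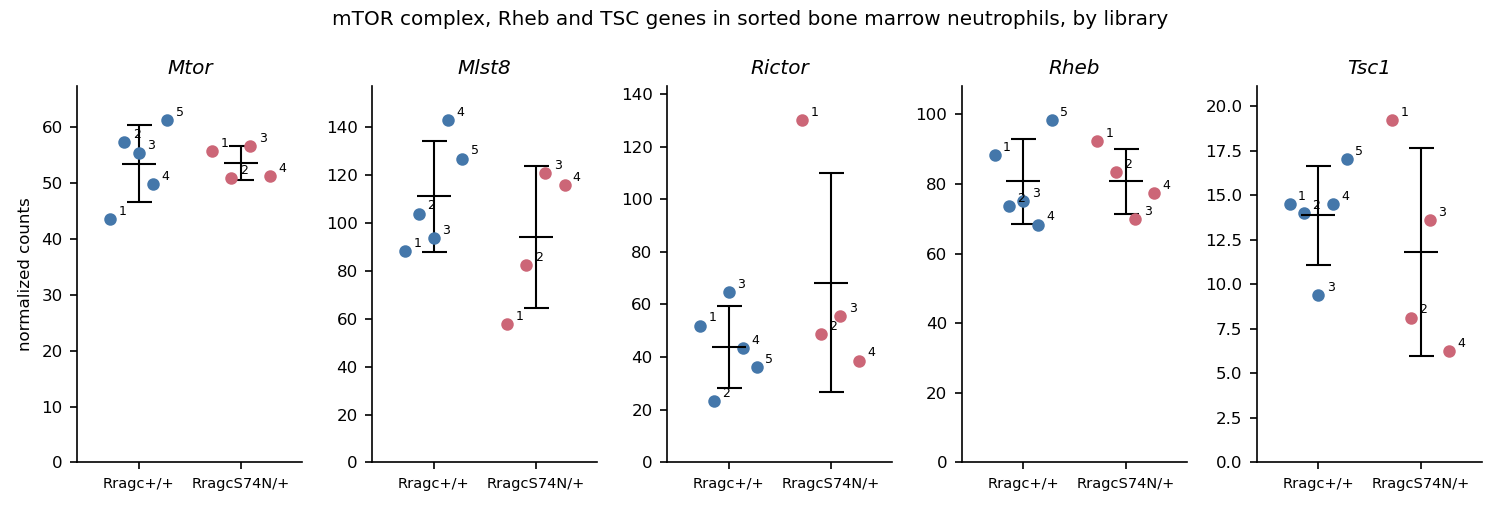
Normalized counts (vertical axes, from 0) of the 5 genes in each of the 5 Rragc+/+ and 4 RragcS74N/+ libraries, with 1 point per library and the mean and SD of each genotype. The genotypes overlap in every panel, and the highest Rictor point, 130.0, is RragcS74N/+ replicate 1.

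Mtor, the catalytic subunit of both complexes, was at 43.5, 57.3, 55.3, 49.8 and 61.2 normalized counts in Rragc+/+ replicates 1 to 5 and at 55.7, 50.8, 56.5 and 51.2 in RragcS74N/+ replicates 1 to 4. All RragcS74N/+ values lay inside the wild-type range. The means were 53.4 ± 6.89 (SD, n = 5) and 53.6 ± 2.95 (SD, n = 4), and the log2 difference was 0.01 ± 0.17 with a limma adjusted p of 0.989. The 95% interval of the difference, -0.36 to 0.38, corresponds to 0.78 to 1.3 times the wild-type level.

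Mlst8, the small β-propeller protein bound to the kinase domain in both complexes, was the most abundant of the 5. It was at 88.3, 104, 93.7, 143 and 127 in Rragc+/+ libraries and at 57.7, 82.3, 121 and 116 in RragcS74N/+ libraries. RragcS74N/+ replicates 1 and 2 lay below every wild-type library and the other two among them. The means were 111 ± 23.2 (SD, n = 5) and 94.1 ± 29.7 (SD, n = 4), with a log2 difference of -0.27 ± 0.24, an interval of -0.78 to 0.23 and a limma adjusted p of 0.744. Without RragcS74N/+ replicate 1 the difference was -0.06.

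Rictor, the scaffold that defines mTORC2 and directs it to AKT, had the widest spread. Its values were 52.0, 23.4, 64.7, 43.4 and 36.1 in Rragc+/+ and 130.0, 48.8, 55.7 and 38.7 in RragcS74N/+ libraries. RragcS74N/+ replicate 1 stood at 196 reads, above every other library (20 to 79 reads), while the other RragcS74N/+ libraries fell within the wild-type range. The wild-type mean was 43.9 ± 15.7 (SD, n = 5), and that of RragcS74N/+ libraries was 68.3 ± 41.7 (SD, n = 4). The log2 difference of 0.54 ± 0.34 had an interval of -0.20 to 1.28 and a limma adjusted p of 0.713. Count tests gave 0.63 by edgeR (adjusted p = 0.694) and 0.64 by DESeq2 (adjusted p = 0.769). Without RragcS74N/+ replicate 1 the difference fell to 0.18.

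Rheb was at 88.3, 73.6, 75.0, 68.3 and 98.3 in Rragc+/+ and at 92.2, 83.4, 70.0 and 77.3 in RragcS74N/+ libraries, so that every RragcS74N/+ value again lay inside the wild-type range. The genotype means were 80.7 ± 12.3 (SD, n = 5) and 80.7 ± 9.37 (SD, n = 4). The log2 difference was 0.01 ± 0.18 (limma adjusted p = 0.995), and its interval of -0.37 to 0.38 corresponds to 0.774 to 1.3 times the wild-type level.

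Tsc1, which stabilizes Tsc2, the GTPase-activating protein for Rheb, was the least abundant. It was at 14.5, 14.0, 9.37, 14.5 and 17.0 in Rragc+/+ libraries and at 19.2, 8.13, 13.6 and 6.27 in RragcS74N/+ libraries, from 6 to 29 reads each. RragcS74N/+ libraries held both the highest and the lowest value. The means were 13.9 ± 2.79 (SD, n = 5) and 11.8 ± 5.84 (SD, n = 4), the log2 difference was -0.31 ± 0.33 and its interval was -1.02 to 0.41. The limma adjusted p was 0.782. Without RragcS74N/+ replicate 4 the difference was -0.07, and without RragcS74N/+ replicate 1 it was -0.57.

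Of the 5 genes, 2 were lower and 3 higher in RragcS74N/+, with a median log2 difference of 0.01, against 46.6% lower and a median of 0.02 over all genes tested. The signs of Mtor and Rheb rested on differences near 0 and turned when single libraries were left out. The precision differed between the genes: the intervals for Mtor and Rheb reach up to 1.3 times the wild-type level, while that for Rictor reaches 2.43 times.

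The 5 genes varied between libraries to very different degrees. For each gene, the spread of its reads between libraries of 1 genotype was set against counting alone, as a chi-square divided by its degrees of freedom, which is near 1 where the spread is no wider than counting error. The median of all genes tested was 3.78, and 539 genes (8.08%) were at or below 1. Mtor was at 0.721, below 1, with a coefficient of variation of 9.72% over the 9 libraries, and only 3.5% of genes had a lower value. Rheb, at 1.81, and Tsc1, at 1.74, were also below the median, with coefficients of variation of 12.9% and 32.6%. Mlst8, at 8.92, and Rictor, at 16.5, were above it, and 74.6% and 85.4% of genes had lower values. At the same relative spread this chi-square rises with the number of reads, so ranks among all genes depend partly on level. The low value of Tsc1, with 6 to 29 reads per library, therefore does not show a steady level. Its coefficient of variation was above the 25.2% of Mlst8. With each library left out in turn, a check added after the data had been seen, Mtor was the lowest of the 5 every time, at 0.316 to 0.823. The value of Rictor rested on RragcS74N/+ replicate 1, without which it was 4.11 (median of all genes 3.31), below the 5.48 of Mlst8, whereas it was 14.5 to 19.2 without any other library. The libraries carried UMIs, whose use in the counting is not given in the sources used here, and the values take each read as 1 count.

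**Figure D2:**
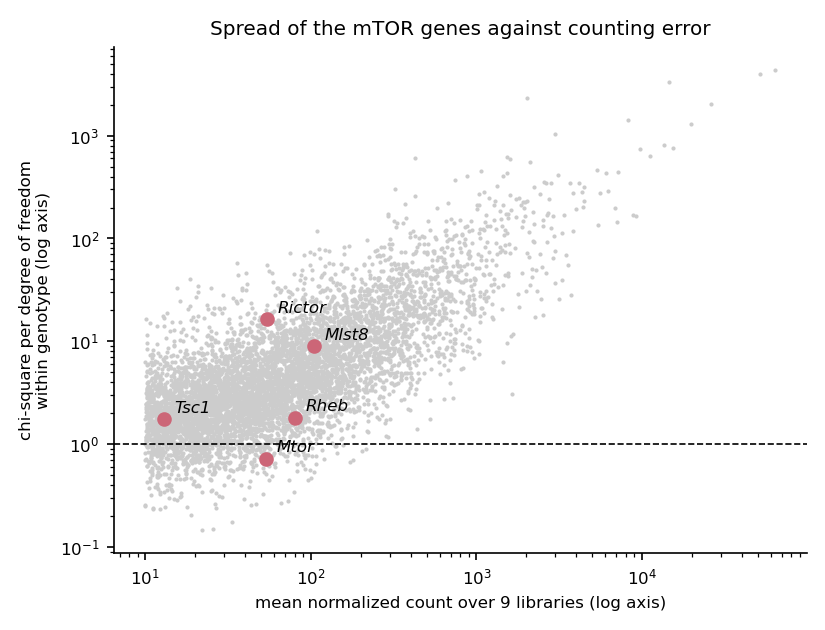
Each grey point is 1 of the 6673 genes tested, placed by its mean normalized count (log axis) and its chi-square per degree of freedom within genotype (log axis, dashed line at 1 for counting error alone), with the 5 mTOR genes named. Mtor lies lowest of the 5 at 0.721 and Rictor highest at 16.5 (4.11 without RragcS74N/+ replicate 1).

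In order of mean level over the 9 libraries, Mlst8 (104) came before Rheb (80.7), Rictor (54.7), Mtor (53.5) and Tsc1 (13). Neighbours in this order were not all separate. Mlst8 exceeded Rheb in 6 of 9 libraries, with a mean log2 ratio of 0.33 ± 0.51 (SD), and Rictor exceeded Mtor in 3 of 9, with a mean log2 ratio of -0.11 ± 0.70 (SD). Rheb exceeded Rictor in 8 of 9 libraries (0.70 ± 0.65, SD). Mtor exceeded Tsc1 in 9 of 9 (2.12 ± 0.52, SD). Of all genes tested, 68.1% had a lower mean than Mlst8, 50.5% a lower mean than Rictor and 7.5% a lower mean than Tsc1.

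Ratios between genes of 1 library do not depend on its scaling, and those given here were chosen after the values had been seen. Rictor per Mtor read was 0.408 to 1.2 in Rragc+/+ and 0.755 to 2.33 in RragcS74N/+ libraries. The ratio of Mlst8 to Mtor was 1.69 to 2.87 and 1.04 to 2.27, and that of Tsc1 to Rheb was 0.125 to 0.212 and 0.0811 to 0.209. In each of these ratios the genotypes overlapped, and RragcS74N/+ replicate 1 held both the highest Rictor and the lowest Mlst8 per Mtor read.

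Over the 9 libraries, Rictor and Mlst8 gave the strongest of the 10 pairwise correlations, and it did not pass the adjustment. Pearson's r was -0.70 (exact permutation p = 0.044, adjusted p = 0.44 over 10 pairs, two-sided) and Spearman's rho was -0.53 (exact permutation p = 0.148, adjusted p = 0.833). Leaving out the pair of libraries farthest from the median of Rictor, Rragc+/+ replicate 2 and RragcS74N/+ replicate 1, gave r = -0.53, and leaving out RragcS74N/+ replicate 1 alone gave -0.27. The other 9 pairs had exact permutation adjusted p of at least 0.848 for Pearson's r and 0.833 for Spearman's rho.

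The libraries also differed in a trend with base composition. The GC content of the last 500 bases of each transcript was set against the deviation of each gene from its mean, and the slope, in log2 units per 10 points of GC, ran from -0.11 to 0.31 in Rragc+/+ libraries and from -0.21 to -0.01 in RragcS74N/+ libraries. Every RragcS74N/+ slope was negative, while among Rragc+/+ libraries only that of replicate 5 was, so slope and genotype went partly together. Rragc+/+ replicate 2 had the highest slope and RragcS74N/+ replicate 1 the lowest. These are the libraries in which Rictor was lowest (23.4) and highest (130.0). The 3′ end of Rictor is 28.2% GC, and only 1.5% of genes have a lower value, whereas Mtor (48.4%), Rheb (45.6%), Mlst8 (51.8%) and Tsc1 (39.6%) lie closer to the median of 43.0%. Over the 9 libraries, Rictor and Rheb ran against the slope with a like Pearson's r but a different Spearman's rho. Neither passed the test over the 5 genes. For Rictor, Pearson's r was -0.60 (exact permutation p = 0.0901, adjusted p = 0.225) and Spearman's rho -0.20 (exact permutation p = 0.613, adjusted p = 0.843), and without the libraries of the highest and the lowest slope r was 0.70, so the relation rests on those libraries. For Rheb, r was -0.60 (exact permutation p = 0.0886, adjusted p = 0.225) and rho -0.63 (exact permutation p = 0.076, adjusted p = 0.38), and r was -0.53 without the same libraries. Within genotypes, r for Rheb was -0.74 in Rragc+/+ and -0.86 in RragcS74N/+ libraries, and for Rictor -0.44 and -0.63. The other 3 genes had exact permutation adjusted p of at least 0.61.

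With the trend removed from each library, the log2 difference of Rictor was 0.34 (limma adjusted p = 0.876) and that of Mlst8 -0.09 (adjusted p = 0.954). Both were smaller in size than without removal. The differences of Mtor (0.11), Rheb (0.04) and Tsc1 (-0.39) were larger in size. With Rragc+/+ replicate 2 and RragcS74N/+ replicate 1 left out, a choice made after the data had been seen, the difference of Rictor was -0.02. Whether the trend accounts for the spread of Rictor was not tested. Because slope and genotype went partly together, removing the trend may also take out genotype difference. The trend and the genotype cannot be told apart in the trend-removed values given here and below.

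**Figure D3:**
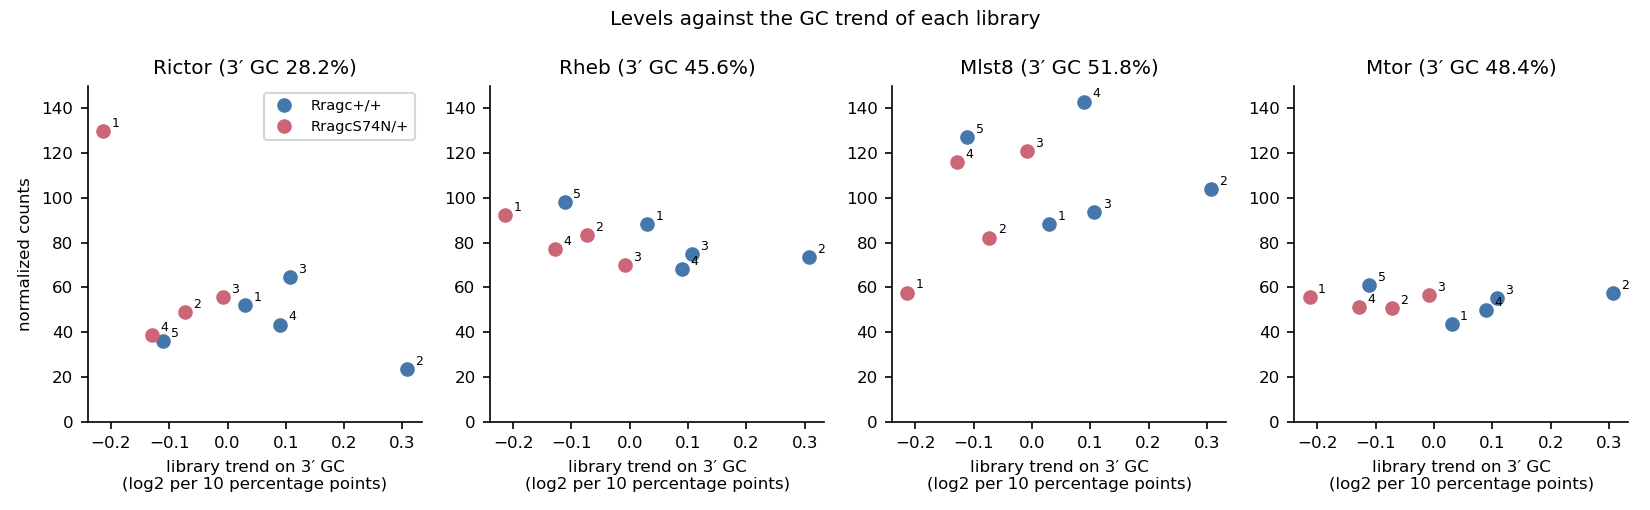
Normalized counts of Rictor, Rheb, Mlst8 and Mtor in each library (vertical axes, from 0) against the slope of that library with 3′ GC content (horizontal axes, log2 units per 10 points of GC). The lowest Rictor point belongs to Rragc+/+ replicate 2, with a slope of 0.31, and the highest to RragcS74N/+ replicate 1, with a slope of -0.21.

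The genes whose log2 levels followed Mlst8 and Rheb most closely over the 9 libraries were found among 6672 genes, as a description. For Mlst8 they were Pa2g4 (r = 0.94), a binding protein of the ErbB3 receptor, H4c18 (r = 0.90), a histone H4 gene of a multicopy family whose reads may be shared between copies, and Ado (r = 0.89), a thiol dioxygenase. For Rheb they were Cert1 (r = 0.93), a ceramide transporter, Scyl2 (r = 0.92), a clathrin-coat pseudokinase, and Pde1b (r = 0.87), a cyclic nucleotide phosphodiesterase. With the GC trend removed, r for Rheb and Scyl2 was 0.63. Cert1 had no 3′ GC value, so its own levels were not corrected, and its r with corrected Rheb was 0.91. The points share libraries and depth, and high values are found among so many genes compared. Reads per library were few for Pa2g4 (10 to 21), Ado (7 to 19) and Pde1b (7 to 20), and H4c18 ran from 1 to 68. Counting error therefore weighs on the r of these genes.

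The wider pathway was taken from lists by role, with 67 further genes, of which 46 had a row and 43 were tested. None passed the adjusted threshold in either direction; 23 were lower and 20 higher, with a median log2 difference of -0.02. The other partners of the mTOR complexes comprised 3 tested genes. Mapkap1 (SIN1, an essential mTORC2 subunit) averaged 29.9 ± 9.69 in the 5 wild-type libraries and 34.9 ± 4.93 in the 4 RragcS74N/+ libraries (SD here and below), and Prr5l, an mTORC2-associated protein, at 85.7 ± 22.4 and 98.5 ± 39.9. Tti1, part of the co-chaperone that assembles mTOR, was at 39.2 ± 8.57 and 31.0 ± 3.94, a log2 difference of -0.31 (limma adjusted p = 0.724). Tti2, its partner, averaged 8.16 and 10.9 normalized counts, and Nprl2, the only GATOR1 gene with a row, 9.67 and 8.83, both under the level tested.

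Upstream of TSC and Rheb, 8 of 13 tested genes were lower and 5 higher, with a median log2 difference of -0.06. Ddit4 (REDD1, an inducer of TSC activity) was at 16.0 ± 5.82 in Rragc+/+ and 19.2 ± 2.72 in RragcS74N/+ libraries (log2 difference 0.32, limma adjusted p = 0.752). Its difference rose to 0.48 with the GC trend removed. Prkag1, the γ1 subunit of the energy sensor AMPK, had the smallest p of this list, with 359 ± 137 and 246 ± 31.6 and a log2 difference of -0.49 (limma adjusted p = 0.713). With the GC trend removed that difference was -0.23.

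Among the substrates, 7 of 13 were lower and 6 higher, with a median of -0.02. Rps6kb1 (S6K1) was at 38.0 ± 16.1 in Rragc+/+ and 41.5 ± 9.32 in RragcS74N/+ libraries and Rps6kb2 (S6K2) at 17.7 ± 4.21 and 12.9 ± 4.55. The translation repressors Eif4ebp1 and Eif4ebp2 were at 185 ± 35.2 and 157 ± 19.4, and at 412 ± 123 and 425 ± 53.8. Ulk1, the kinase that starts autophagy, was at 95.8 ± 38.6 and 97.9 ± 19.1. The limma adjusted p of these 5 genes was at least 0.713. Tfeb had the smallest p of the list, at 93.9 ± 35.2 and 60.8 ± 14.0, with a log2 difference of -0.57 (limma adjusted p = 0.713) that was -0.15 with the GC trend removed.

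In the amino acid branch, the Rag GTPases, the Ragulator that anchors them and folliculin gave 6 lower and 5 higher of 11 tested genes, with a median of -0.03. Rragc itself was at 71.0 ± 10.3 in Rragc+/+ and 65.8 ± 9.52 in RragcS74N/+ libraries (log2 difference -0.11, limma adjusted p = 0.86). The edit changes the protein and not necessarily the number of reads, so this level is no check of the genotype. Lamtor1, the lysosomal anchor of Ragulator, was at 651 ± 68.1 and 528 ± 45.9 (log2 difference -0.30, limma adjusted p = 0.713), and -0.11 with the GC trend removed. Among all 43 pathway genes tested, 2 had an unadjusted limma p under 0.05, against 5.81% of all genes, and neither passed the adjustment. Both belong to the 3 tested GATOR2 and sensor genes. Sesn2, the leucine sensor Sestrin2, was at 140.2 ± 50.8 and 82.9 ± 14.1, a log2 difference of -0.69 ± 0.25 (limma adjusted p = 0.713) that was -0.40 with the GC trend removed. Bmt2 (SAMTOR, the S-adenosylmethionine sensor), named after its value had been seen, was at 71.9 ± 13.4 and 97.3 ± 14.4, a log2 difference of 0.44. Its 3′ end is low in GC, at 28.8%, and its difference with the GC trend removed is not given here.

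**Figure D4:**
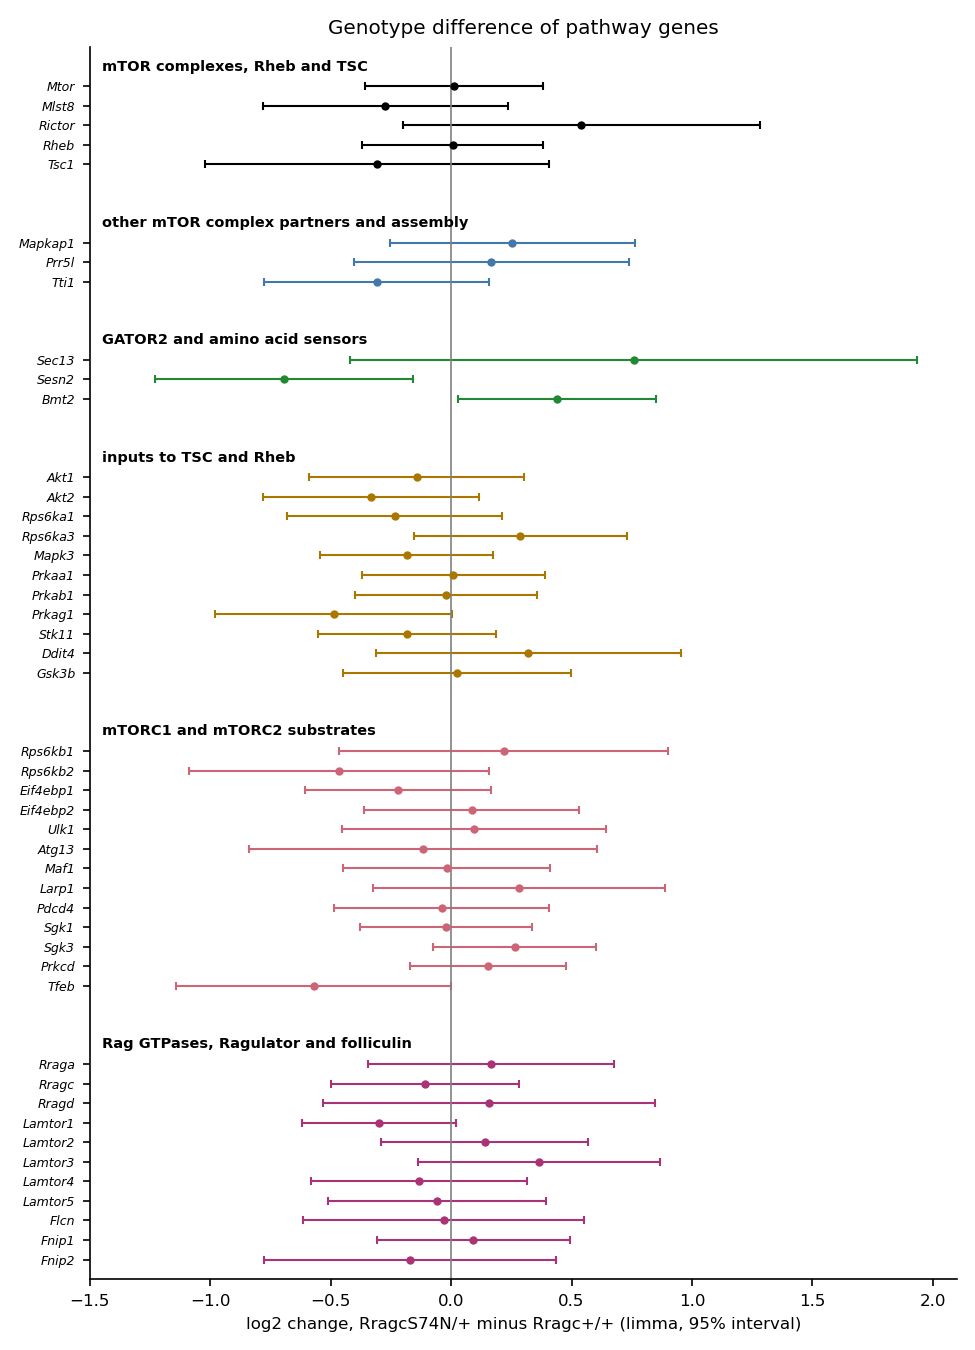
Log2 differences, RragcS74N/+ minus Rragc+/+ (horizontal axis), of the 5 mTOR genes and 41 of the other pathway genes tested, with 1 point per gene and its 95% interval, arranged by role. The points lie on both sides of 0, from -0.69 for Sesn2 to 0.76 for Sec13, and none passed the adjusted threshold. Sec13 had only 3 reads in Rragc+/+ replicate 2, and its difference was 0.37 by edgeR and 0.41 by DESeq2.

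The differences of the 5 genes depended on the processing as far as their size allowed. Over 21 alternatives none of them passed the adjusted threshold, Mlst8 and Tsc1 stayed lower in RragcS74N/+ in each one in which they were tested, and Mtor, Rheb and Rictor took both signs.

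**Figure D5:**
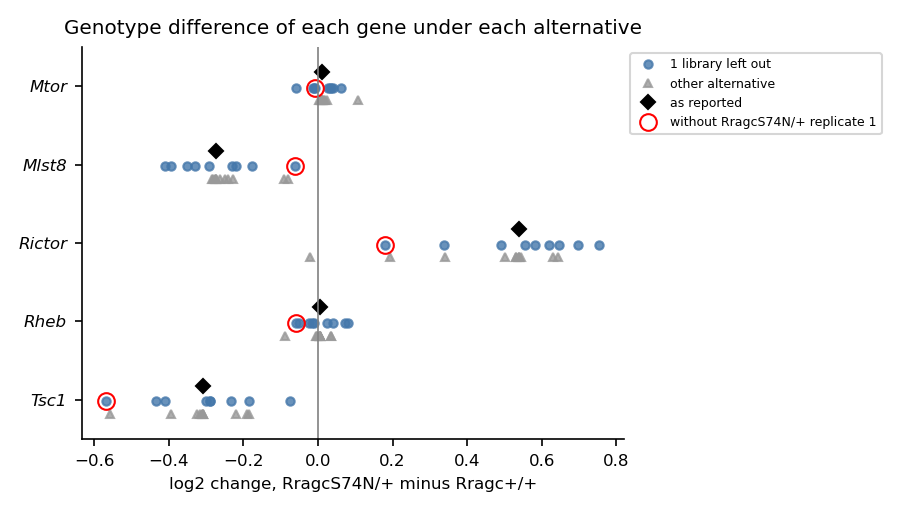
Log2 differences of the 5 genes, RragcS74N/+ minus Rragc+/+ (horizontal axis), as reported and under each alternative way of processing, with 1 point per fit (circles with 1 library left out, triangles for other alternatives, black diamonds as reported, red rings without RragcS74N/+ replicate 1). Rheb and Mtor stay close to 0, and Rictor runs from -0.02 to 0.75.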

How the data were processed

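The authors deposited 1 table of normalized counts (a signal of whole reads divided by size factors) for 7197 genes in 9 QuantSeq 3′ libraries, stranded in the sense direction. Per the labels, the submitters' processing notes name TopHat2 2.0.10, Bowtie 1.0.0, SAMtools 1.9, FastQC 0.11.7, HTSeq 0.6.1, DESeq2 and the build GRCm39. All 9 columns carried the titles of single samples and were assigned to genotypes by the labels; 0 columns were left over. In each library the values were whole multiples of 1 read for 100.0% of values within 0.01 of a read, and the recovered reads set the depth. For Rragc+/+ replicate 5, 1 read was worth close to 1 normalized count. The study describes separate mice in each genotype, while the labels do not number them, and p-values measure the spread between these libraries.

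Values were tested on log2(value + 1), relative to the deposited normalization, with limma 3.58.1 in R 4.3.3 (trended moderation, 2-sided) for genes with a mean of at least 10, with Benjamini-Hochberg adjustment over all 6673 genes and a threshold of 0.05. A fold change on this scale understates the change of low genes. edgeR 4.0.16 (quasi-likelihood) and DESeq2 1.42.0 served as alternatives on those reads, beside other pseudocounts, filters, scalings, array weights, removal of the 3′ GC trend (lowess span 0.5, GENCODE transcripts of GRCm38 matched by symbol for 7067 genes) and leaving out each library. The fitting script was tested on simulated data. Ratios with Rptor and Tsc2 had been planned and could not be computed, as these genes had no row. Correlations used exact permutation tests in scipy 1.17.1.

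The members and gene lists were chosen with earlier results of these data known. The genes named are the members, Rragc, the direct partners of members, the gene with the smallest p of each pathway list, the most abundant gene of each marker list and the 3 genes most correlated with each of the 2 most abundant members. Bmt2, Sec13, Akt1, Akt2 and Rragd fall outside this rule and were named after their values had been seen. Promoter sequences are from RefSeq (GRCm38.p6), a build other than that of the counts, and were used only for sequence. Values of single pathway genes that are withheld are not reported here, though the list counts include them.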

Additional observations from a re-analysis of the deposited data

Results flagged for a closer look

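Dixon's test for a single outlying library was applied to each named gene in each genotype, 68 groups in all, and 3 stood out, where chance gives about 1 in 20 groups, or 3.4. None was Mtor, Rictor, Mlst8, Rheb or Tsc1, with a cut-off of 0.829 of the spread for 4 libraries and 0.71 for 5. Falling short of it does not show that no library stood apart. Rictor was at 130.0 in RragcS74N/+ replicate 1, against 38.7 to 55.7 in the other RragcS74N/+ libraries. Tti1, of the co-chaperone that assembles mTOR, was lowest in replicate 4 of RragcS74N/+, where its distance to the next library took up 0.923 of the spread of the genotype. Eif4ebp1, the translation repressor phosphorylated by mTORC1, was high in the same library, at 0.9 of the spread. Prg2, an eosinophil granule protein, was high in Rragc+/+ replicate 5, at 0.825 of the spread and 80.2 normalized counts. Without RragcS74N/+ replicate 4 the log2 difference of Tti1 was -0.21, against -0.31 with all libraries.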

How the results depend on the processing

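Of 104 values for the 5 genes over 21 alternatives, 90 kept the sign of the log2 difference and 14 did not, and none passed the adjusted threshold. For 29 other named genes 523 of 557 kept it and 34 did not. Leaving out 1 library at a time gave -0.0582 to 0.0626 for Mtor, 0.18 to 0.754 for Rictor, -0.411 to -0.0614 for Mlst8, -0.0592 to 0.0796 for Rheb and -0.567 to -0.0746 for Tsc1, and 2 to 4 of the 5 genes lower in RragcS74N/+. The same ranges were -0.0786 to 0.29 for Prr5l, -0.0548 to 0.38 for Rps6kb1, -0.0185 to 0.236 for Eif4ebp2, -0.033 to 0.295 for Ulk1, -0.155 to 0.00106 for Rragc, -0.356 to 0.0304 for Pa2g4, -1.15 to 0.338 for H4c18, -0.104 to 0.0742 for Cert1, -0.0325 to 0.105 for Scyl2, -0.0426 to 0.245 for Pde1b and -0.0232 to 0.301 for Top2a. Without both libraries farthest on the GC trend, added after the data had been seen, 4 of the 5 genes were lower, and the log2 difference was -0.0216 for Rictor, -0.0887 for Rheb, -0.0174 for Ulk1, 0.0157 for Pa2g4, 0.311 for H4c18, -0.0662 for Scyl2 and -0.0792 for Pde1b. Rheb was at -0.00283 with equal library totals, -0.00171 with TMM scaling and -0.00651 with edgeR. With array weights Prr5l was at -0.0111 and Cert1 at 0.0424, with DESeq2 Cert1 was at 0.00272, and Scyl2 was at -0.00372 with edgeR and -0.137 with the GC trend removed. With a mean of at least 50 required, Tsc1 was not tested and 1 gene was lower. The cause of the other reversals was not tested. Low counts limit Tsc1 most, at 6 to 29 reads per library. The replicate numbers used here follow the order of the samples within each genotype and are not in the labels. No paired analysis was made because the labels name no pairing of libraries.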

Other observations

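Several pathway proteins are encoded by related genes, and in the pairs below the normalized counts were unequal in libraries of both genotypes. These pairs were chosen after their values had been seen and are given as levels, not tests. The genes of a pair differ in 3′ GC, as with Rps6kb1 (31.2%) and Rps6kb2 (46.8%), and the levels were not corrected for it. Akt2 was at 368 ± 96.5 normalized counts (SD, n = 9 libraries) and Akt1 at 184 ± 41.8, and Akt2 was higher in 9 of 9 libraries. Eif4ebp2, at 418 ± 93.0, exceeded Eif4ebp1, at 173 ± 31.3, in 9 of 9 libraries. Rps6kb1, at 39.5 ± 12.9, exceeded Rps6kb2, at 15.6 ± 4.81, in 8 of 9 libraries. Of the paralogous Rag GTPases, Rragc, at 68.7 ± 9.74, exceeded Rragd, at 10.3 ± 2.86, in 9 of 9 libraries.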
